A study of Mus musculus with 30 samples.

Results

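Levels of 10 marker genes, 5 of neutrophils and 5 of macrophages, are described here out of 57133 genes counted in whole mouse kidney. The neutrophil genes were S100a8, S100a9, Csf3r, Cxcr2 and Retnlg, and the macrophage genes were Cd68, Cx3cr1, Csf1r, Adgre1 and C1qa. They were chosen by name as cell type markers, each symbol matched 1 Ensembl identifier, and all 10 had counts in both deposited tables. Poly-A RNA of 30 kidneys was sequenced, 1 library each, from wild-type mice (WT) and from transgenic mice (TG), whose genotype is labelled Gsta2-H2BeGFP. Gsta2 is a glutathione S-transferase, and H2BeGFP is a histone joined to a green fluorescent protein. The promoter of the transgene, the number of founder lines, and the strain and age of the mice are not given in the sources used here. Without surgery there were 3 WT and 3 TG males and 3 WT and 3 TG females. The nephrectomy group (NX), in which surgery took out a kidney, held 3 WT and 3 TG males. The injury group held 6 WT and 6 TG males with both nephrectomy and IRI, short for ischemia-reperfusion injury, where blood supply is blocked and then restored, and these kidneys were taken 4 hours later. So the IRI mice had been nephrectomized too, and every injured mouse was male. Replicates are numbered from 0.

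Neutrophils are short-lived white blood cells that form in the bone marrow under granulocyte colony-stimulating factor and leave the blood within hours for injured tissue, drawn by CXC chemokines. Macrophages are long-lived phagocytes that lie between the tubules of the healthy kidney, depend on signals through the CSF1 receptor, and are joined after injury by cells derived from blood monocytes. A bulk library mixes all cells of the organ and the blood in its vessels, so a lower level of a marker can come from fewer cells of a type or from less RNA per cell, and these cannot be told apart.

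The counted genes lie, in the GRCm39 coordinates of the deposited tables, at chr3:90576285-90577342 (S100a8, plus strand), chr3:90599939-90603028 (S100a9, minus), chr4:125918343-125938233 (Csf3r, plus), chr1:74193150-74200405 (Cxcr2, plus) and chr16:48692984-48694859 (Retnlg, plus). Of the macrophage genes, Cd68 is at chr11:69555039-69556979 (minus), Cx3cr1 at chr9:119877749-119898945 (minus), Adgre1 at chr17:57665691-57790527 (plus) and C1qa at chr4:136623228-136626114 (minus). S100a8 and S100a9 are near neighbours on chromosome 3, transcribed from opposite strands. Of the exons of Csf1r, 873 of 5774 bases overlap exons of Hmgxb3 on the opposite strand, so without strand reads of these genes cannot be told apart, and whether strand was used is not given in the sources used here. The exons of Cx3cr1 share 78 of 4493 bases with the predicted gene Gm33858, which had 2 counts in all of the 18 NX and IRI libraries.

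The bases just before the annotated start are shown for 3 neutrophil genes that moved together, for Cd68, which rose after injury, and for Cx3cr1, which fell. Each run is the 250 bases before the start, 5′ to 3′ on the strand of the gene, from RefSeq on GRCm38.p6, a different build from that of the counts. The promoter table held a window that could be used for 7 of the 10 genes. Capitals mark GAGGAA, the core read by the myeloid factor PU.1, TTNNGNAA, the core read by C/EBP factors, and TATAAA, the TATA box, on either strand, with neighbouring or overlapping matches running together.
S100a8 (chr3:90668821-90669070, plus strand): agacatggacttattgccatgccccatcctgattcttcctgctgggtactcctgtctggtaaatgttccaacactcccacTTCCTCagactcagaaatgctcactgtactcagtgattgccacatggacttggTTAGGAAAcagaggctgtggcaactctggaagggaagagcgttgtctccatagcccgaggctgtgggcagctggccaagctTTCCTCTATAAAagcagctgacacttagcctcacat
S100a9 (chr3:90695722-90695971, minus strand): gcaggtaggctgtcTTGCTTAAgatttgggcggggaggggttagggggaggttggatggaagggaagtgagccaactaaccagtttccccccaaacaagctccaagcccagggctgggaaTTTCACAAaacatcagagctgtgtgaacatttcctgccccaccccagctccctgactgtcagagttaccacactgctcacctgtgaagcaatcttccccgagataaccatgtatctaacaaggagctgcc
Csf3r (chr4:126024409-126024658, plus strand): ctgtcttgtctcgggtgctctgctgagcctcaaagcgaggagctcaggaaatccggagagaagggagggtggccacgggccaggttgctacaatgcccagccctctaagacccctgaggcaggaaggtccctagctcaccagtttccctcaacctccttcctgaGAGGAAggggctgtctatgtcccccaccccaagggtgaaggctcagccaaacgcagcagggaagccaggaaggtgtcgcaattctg
Cd68 (chr11:69666171-69666420, minus strand): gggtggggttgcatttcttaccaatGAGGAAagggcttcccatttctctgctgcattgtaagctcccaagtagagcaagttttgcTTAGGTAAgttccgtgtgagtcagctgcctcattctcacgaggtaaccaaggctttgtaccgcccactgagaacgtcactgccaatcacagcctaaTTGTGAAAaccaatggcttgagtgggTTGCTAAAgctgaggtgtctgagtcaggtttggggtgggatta
Cx3cr1 (chr9:120068297-120068546, minus strand): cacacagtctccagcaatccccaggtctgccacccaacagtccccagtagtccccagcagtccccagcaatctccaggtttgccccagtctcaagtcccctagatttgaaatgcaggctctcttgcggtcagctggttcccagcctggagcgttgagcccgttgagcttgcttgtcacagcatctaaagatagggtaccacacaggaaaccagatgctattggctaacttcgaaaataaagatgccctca
S100a8 held 2 PU.1 cores, 1 C/EBP core and a TATA box 30 bases before its start, and S100a9 held 2 C/EBP cores. Csf3r held 1 PU.1 core, Cd68 held 1 PU.1 core and 3 C/EBP cores, and none of the 3 motifs was in the Cx3cr1 window. In the 2 windows not shown, Cxcr2 held only 1 PU.1 core and Retnlg only 1 C/EBP core. Of 32851 mouse windows of this length, 23.3% held the PU.1 core, 36.8% the C/EBP core and 12.4% the TATA box. A match is a run of letters and not a measured binding site.

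Depth was 49040915 to 66446450 counts per library without surgery and 59574069 to 91354407 after NX or IRI. Whether the kidneys of a group came from separate mice is not stated, so the tests speak only of how far these libraries vary. Libraries of the same group differed by 18.64 to 198.13 chi-square per degree of freedom over 48 pairs, more than counting noise alone gives. How far this spread comes from the mice or from library preparation was not tested. Kidney epithelial genes, 8 in all, summed to 17600 to 39600 CPM in the 30 libraries, where CPM are counts scaled to a common library total with 1 joint TMM normalization. EGFP transcripts were counted in every TG library (86 to 1294 counts) and in 1 library labelled WT, IRI replicate 1 (206 counts), and in no other WT library. WT NX replicate 0 held the fat gene Adipoq at 38.5 CPM, against 0 in the other 2 WT NX kidneys.

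Before injury the neutrophil genes were close to absent and the macrophage genes were not. Over the 18 kidneys without IRI, S100a8, S100a9, Cxcr2 and Retnlg had group means of 0 to 0.169 CPM. Csf3r, the receptor for granulocyte colony-stimulating factor, ran highest of the 5, from 0.35 ± 0.283 CPM (SD, n = 3) in WT after NX to 0.654 ± 0.492 CPM (SD, n = 3) in WT males without surgery. Retnlg had 0 counts in all 3 WT males without surgery. Cxcr2 had 1 count in total over the 3 WT females. The SDs of these 4 low genes were often as large as their means, and no order of the 6 uninjured groups can be read from them.

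The macrophage genes were present in all 30 libraries. Csf1r, the receptor for CSF1 and IL-34, had group means of 55.8 to 70.7 CPM in the 6 uninjured groups, and C1qa, a subunit of the first complement component, of 9.35 to 11.8 CPM. Adgre1, which encodes the surface receptor F4/80, lay between 3.55 and 5.94 CPM and Cx3cr1, the receptor for the chemokine fractalkine, between 2.61 and 4.66 CPM. Cd68, a lysosomal glycoprotein, lay between 1.92 and 2.61 CPM. Per kilobase of exon the order was nearly the same in all 6 uninjured groups: Csf1r (9.67 to 12.2 CPM per kb) and C1qa (8.99 to 11.3) led, followed by Cd68 (1.53 to 2.08), Adgre1 (1.1 to 1.84) and Cx3cr1 (0.581 to 1.04). Csf1r and C1qa exchanged places in TG after NX and were level in WT after NX, and the neutrophil genes came below these 5.

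**Figure D1:**
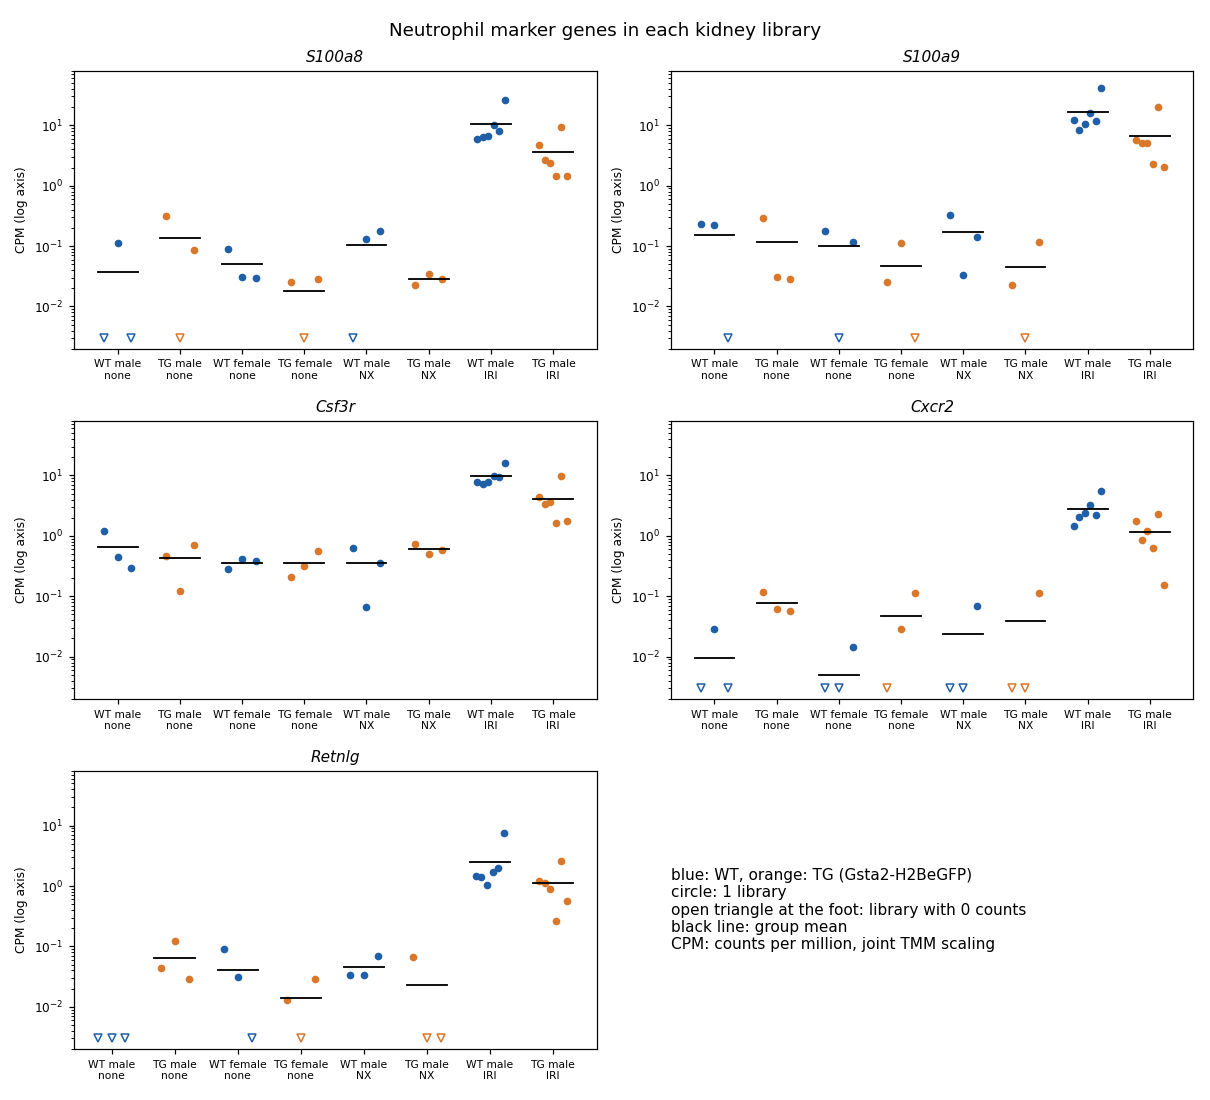
CPM of the 5 neutrophil genes (log axis) in each of the 30 libraries, by group along the x axis; circles are libraries, open triangles at the foot are libraries with 0 counts and black lines are group means. The 12 IRI libraries stand above all 6 NX libraries for each gene.

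**Figure D2:**
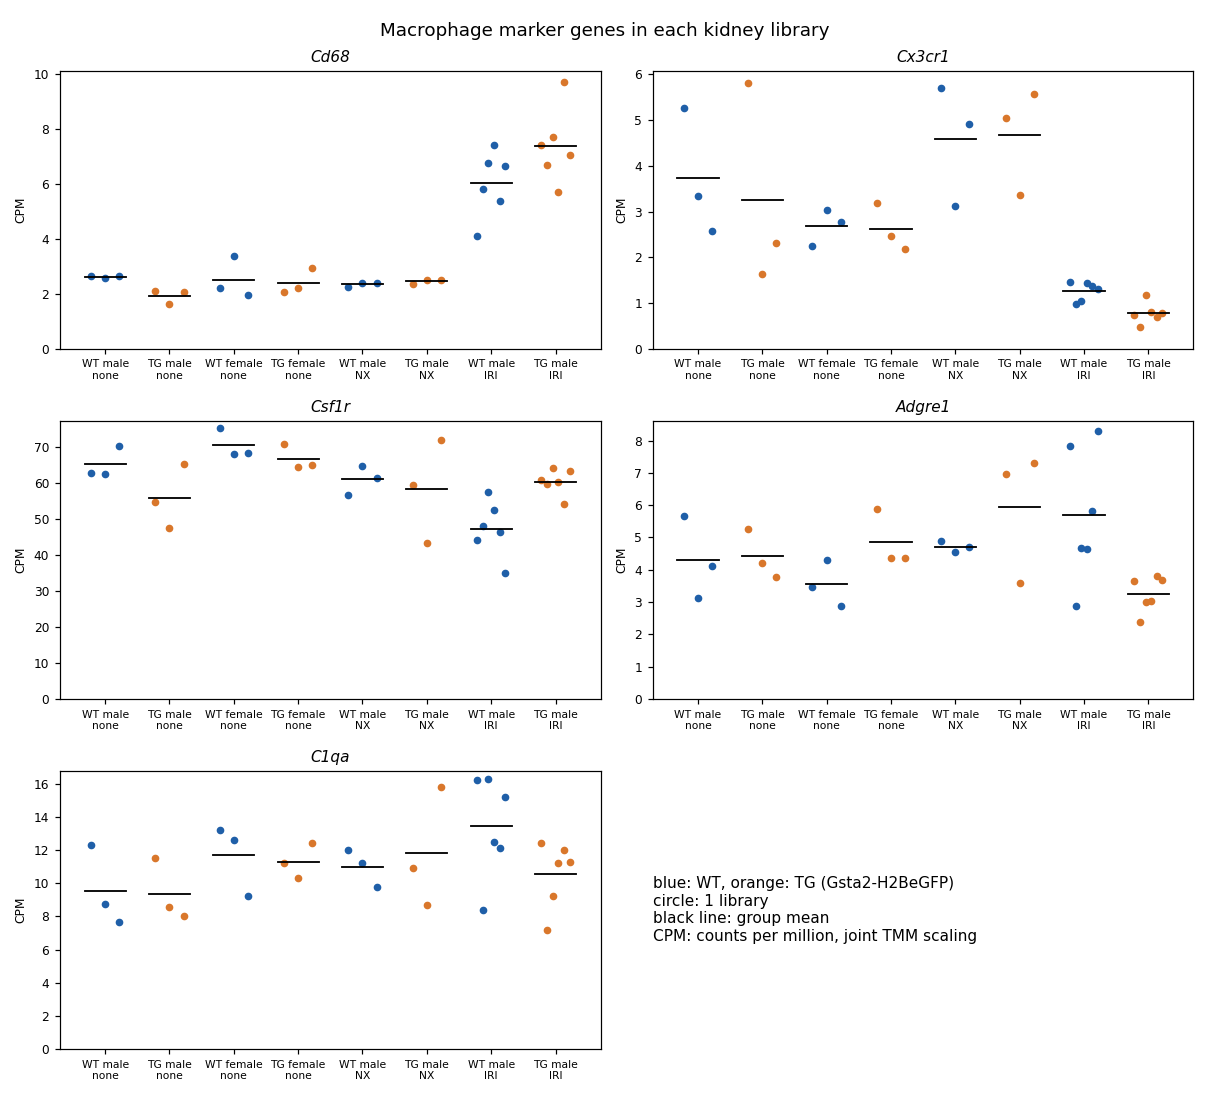
CPM of the 5 macrophage genes (linear axis from 0) in each of the 30 libraries, by group along the x axis; circles are libraries and black lines are group means. Cd68 is higher and Cx3cr1 lower in all 12 IRI libraries than in any NX library, and the other 3 genes overlap between IRI and NX in both genotypes.

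The comparison of IRI with NX sets kidneys taken 4 hours after IRI beside NX kidneys, for which the sample labels give no time. All NX libraries but TG replicate 2 are named by lower numbers than any IRI library. The part of library order in the differences was not tested. All 5 neutrophil genes rose in both genotypes and Cd68 rose with them, Cx3cr1 fell in both, and C1qa passed in neither. Csf1r was called lower in WT and Adgre1 in TG. In WT 6 of the 10 genes were called higher and 2 lower, and in TG also 6 higher and 2 lower (edgeR quasi-likelihood test, Benjamini-Hochberg adjusted p under 0.05 over 19264 genes). The share of all genes called was 30.9% in WT (16.8% higher and 14.1% lower) and 29.4% in TG (16.4% higher and 13% lower). S100a8, S100a9, Cxcr2 and Retnlg were too low in NX for the count filter and were tested only because of the IRI libraries, so they had to differ and their number is a description. Without the WT libraries with EGFP counts and with fat transcripts, 7 of the 10 genes were called in WT, beside 25.2% of all genes, and Csf1r was not.

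S100a8 and S100a9 encode the subunits of calprotectin, a calcium-binding alarmin stored in the neutrophil cytosol. S100a8 read 0, 0.133 and 0.176 CPM in the 3 WT NX kidneys and 5.91 to 26.4 CPM (median 7.35) in the 6 WT IRI kidneys. In TG it read 0.0226, 0.0347 and 0.0287 CPM after NX and 1.45 to 9.4 CPM (median 2.52) after IRI. The groups did not overlap in either genotype, and 26.6% of all genes in WT and 31.5% in TG likewise did not overlap between NX and IRI. The log2 fold change of S100a8 was 6.67 ± 0.89 (SE, adjusted p = 1.35e-05) in WT and 6.94 ± 1 (adjusted p = 3.02e-05) in TG by edgeR. S100a9 read 0.333, 0.0333 and 0.14 CPM in WT after NX and 8.35 to 41.1 CPM (median 12) after IRI. In TG it read 0.0226, 0 and 0.115 CPM after NX and 2.02 to 19.8 CPM (median 5.08) after IRI. S100a9 was the neutrophil gene with the highest level after injury, and its log2 fold changes were 6.6 ± 0.95 in WT and 7.11 ± 1.07 in TG (edgeR adjusted p = 3.23e-05 and 4.92e-05). Leaving out WT NX replicate 0 gave 7.58 for S100a9 in WT, and in TG leaving out NX replicate 2 gave 8.75 and IRI replicate 4 gave 6.38. S100a8 in WT was 7.29 without WT NX replicate 2. The ratio of S100a9 to S100a8 counts was 1.59 ± 0.265 (SD, n = 6) in WT and 1.73 ± 0.381 (SD, n = 6) in TG, so the pair kept a narrow ratio while its level varied several-fold among kidneys.

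The receptors rose as well. Csf3r read 0.632, 0.0666 and 0.351 CPM in WT after NX and 7.15 to 15.9 CPM (median 8.68) after IRI. TG kidneys read 0.746, 0.504 and 0.574 CPM after NX and 1.66 to 9.95 CPM (median 3.51) after IRI. Neither genotype had overlapping groups. Csf3r was the neutrophil gene with the smallest log2 fold change, 4.77 ± 0.64 in WT and 2.75 ± 0.56 in TG (edgeR adjusted p = 1.46e-05 and 0.00101), from the highest level before injury. Without WT NX replicate 0 the WT value was 5.54. Cxcr2, the receptor for CXCL1, CXCL2 and their relatives, had 0, 0 and 4 counts in the WT NX kidneys and 0, 0 and 8 in those of TG. After IRI it read 1.43 to 5.47 CPM (median 2.32) in WT and 0.151 to 2.31 CPM (median 1.03) in TG. All injured kidneys of a genotype were above its NX kidneys, and the log2 fold changes were 6.83 ± 1.12 and 4.86 ± 1 (edgeR adjusted p = 0.000123 and 0.00104). They rest on the single NX kidney of each genotype with counts: without WT NX replicate 2 the value was 10.53, and without TG NX replicate 2 it was 9.23. It was 4.19 without TG NX replicate 0, which had no counts.

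Retnlg encodes resistin-like gamma, a small secreted protein of the resistin family. It had 2, 2 and 4 counts in WT after NX and 6, 0 and 0 in TG. Levels after IRI were 1.04 to 7.56 CPM (median 1.57) in WT and 0.266 to 2.64 CPM (median 1) in TG. Again no injured kidney was as low as any NX kidney of its genotype. The log2 fold changes were 5.74 ± 0.99 in WT and 5.3 ± 1.02 in TG (edgeR adjusted p = 0.000212 and 0.000541), and the TG value was 9.16 without TG NX replicate 0, the only TG NX kidney with counts. The WT value was 5.02 without WT IRI replicate 5. Per kilobase of exon, S100a9 was the highest of the 10 genes after IRI in both genotypes (31.9 CPM per kb in WT and 12.8 in TG). S100a8 ranked 2 in WT (15.3 CPM per kb) and 5 in TG (5.29 CPM per kb), behind S100a9, Csf1r (10.5), C1qa (10.1) and Cd68 (5.86).

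**Figure D3:**
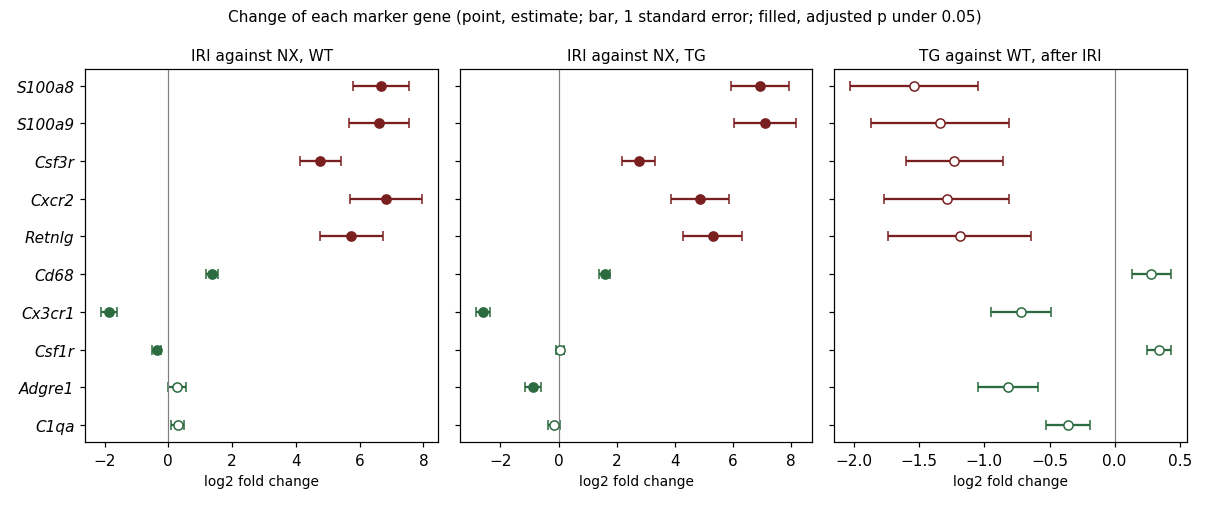
Log2 fold change (x axis) of each of the 10 genes (y axis) for IRI against NX in WT and in TG and for TG against WT after IRI; points are edgeR estimates, bars 1 SE, filled points have an adjusted p under 0.05, and the third panel has a narrower scale. The 5 neutrophil genes lie right of 0 in both injury panels and left of 0, unfilled, in the third.

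Among the macrophage genes Cd68 and Cx3cr1 moved in opposite directions. Cd68 read 2.26, 2.38 and 2.39 CPM in WT after NX and 4.09 to 7.4 CPM (median 6.22) after IRI. The TG kidneys read 2.35, 2.5 and 2.5 CPM after NX and 5.7 to 9.7 CPM (median 7.22) after IRI. The NX kidneys lay close together and all injured kidneys were above them, with log2 fold changes of 1.36 ± 0.19 in WT and 1.58 ± 0.19 in TG (edgeR adjusted p = 2.04e-05 and 3.39e-06). Cx3cr1 read 5.69, 3.13 and 4.91 CPM in WT after NX and 0.978 to 1.45 CPM (median 1.34) after IRI. In TG it read 5.04, 3.37 and 5.58 CPM after NX and 0.465 to 1.17 CPM (median 0.763) after IRI. Every injured kidney was below every NX kidney, with log2 fold changes of -1.85 ± 0.25 in WT and -2.6 ± 0.25 in TG (edgeR adjusted p = 1.3e-05 and 2.37e-07). Cx3cr1 was the lowest of the 10 genes per kilobase after injury, at 0.282 CPM per kb in WT and 0.172 in TG.

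Csf1r, Adgre1 and C1qa overlapped between NX and IRI in both genotypes. Csf1r read 56.7, 64.9 and 61.5 CPM in WT after NX and 35.1 to 57.6 CPM (median 47.3) after IRI, and 5 of 6 injured kidneys were below all 3 NX kidneys. Its log2 fold change of -0.36 ± 0.14 in WT passed narrowly (edgeR adjusted p = 0.0484). The call was lost under 12 of 17 alternatives, among them leaving out any of the 3 WT NX kidneys or WT IRI replicate 0, 1, 4 or 5 (adjusted p = 0.0637 to 0.181). In TG Csf1r read 59.6, 43.4 and 72 CPM after NX and 54.1 to 64.1 CPM (median 60.6) after IRI, a change of 0.05 ± 0.14 (edgeR adjusted p = 0.846). The injured TG kidneys lay within the range of the NX kidneys. Its overlapping neighbour Hmgxb3 changed by 0.08 ± 0.1 in WT (adjusted p = 0.598) and 0.3 ± 0.1 in TG (adjusted p = 0.0317), and the part of shared reads in the Csf1r values was not tested.

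Adgre1 read 4.89, 4.56 and 4.7 CPM in WT after NX and 2.88 to 8.31 CPM (median 5.25) after IRI, a log2 fold change of 0.27 ± 0.28 (edgeR adjusted p = 0.502). In TG it read 6.96, 3.58 and 7.29 CPM after NX and 2.38 to 3.79 CPM (median 3.34) after IRI. All 6 injured TG kidneys were below TG NX replicates 0 and 2, but NX replicate 1 lay among them. The change of -0.88 ± 0.27 was called (edgeR adjusted p = 0.0177), and the adjusted p was 0.0936 without TG NX replicate 0 and 0.112 without replicate 2. C1qa read 12, 11.2 and 9.79 CPM in WT after NX and 8.4 to 16.3 CPM (median 13.8) after IRI. The TG values were 10.9, 8.67 and 15.8 CPM after NX and 7.2 to 12.4 CPM (median 11.2) after IRI. The C1qa groups overlapped, and its log2 fold changes of 0.29 ± 0.21 and -0.17 ± 0.21 did not pass (edgeR adjusted p = 0.332 and 0.599). With intervals of 2 SE either side, these allow -0.14 to 0.71 in WT and -0.59 to 0.25 in TG.

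Of 15 further neutrophil genes 13 were tested, and 12 rose in WT and 8 in TG, with median log2 fold changes of 4.76 and 3.52 beside -0.01 over all genes (3.68 and 2.83 with genes at 0 counts in all NX kidneys set to their lower bound). The share of all genes called higher was 16.8% in WT and 16.4% in TG. Only 3 of the 13 had enough counts in the NX kidneys alone, so the numbers for these genes too are a description. Il1r2, a decoy receptor for interleukin-1, was at 6.41 ± 2.92 CPM (SD, n = 6) after IRI in WT and 2.31 ± 1.82 (n = 6) in TG, and rose by 4.81 ± 0.72 and 4.98 ± 0.78 on the log2 scale. Trem1, a receptor that amplifies myeloid activation, had no count in the 3 WT NX kidneys and was at least 84.5-fold higher after IRI, against a floor of 3 counts over the NX group. Ly6g, the surface protein by which mouse neutrophils are usually sorted, reached at most 0.276 CPM after IRI and was not tested. Among 9 granule genes transcribed in marrow precursors only 3 could be tested, 1 of them with enough counts in the NX kidneys alone. Of the 3, edgeR called 1 higher in WT and 2 in TG. Mmp8, a collagenase of the granules, rose by 7.36 ± 1.27 in WT and 5.32 ± 1.18 in TG, Cd177 was at 3.31 ± 1.33 (not called) and 6.73 ± 2.04 (called), and Ltf, the lactoferrin gene, was at 0.03 ± 0.43 and -0.26 ± 0.42 (not called). The precursor genes Mpo and Elane had 6 and 0 counts in the 6 WT IRI kidneys together and none in the 6 TG IRI kidneys.

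The wider macrophage and leukocyte lists changed less. For scale, 16.8% of all genes in WT and 16.4% in TG were called higher, and 14.1% and 13% lower. Of 13 further macrophage genes 3 rose in WT and none in TG, with median log2 fold changes of 0.62 and 0.01. The 3 were the lectin Clec7a (1.6 ± 0.52), the complement gene C1qb (0.73 ± 0.2) and Lyve1 (2.86 ± 0.76), which lymphatic vessels also express. Of 12 pan-myeloid genes 4 rose in WT (Spi1, which encodes PU.1, by 1.23 ± 0.35, and Tyrobp, Ctss and Coro1a) and none in TG, with medians of 0.75 and 0.12. In TG edgeR gave an unadjusted p under 0.05 for 1 of the 13 and 1 of the 12, and DESeq2 called 1 and 0. Of 8 monocyte genes 1 rose in WT (Vcan, 2.24 ± 0.61) and none in TG, where 3 had an unadjusted p under 0.05 and DESeq2 called 1. Of 10 antigen-presenting and dendritic cell genes 2 rose and 1 fell in WT, and 1 fell in TG. By edgeR none of 11 T and NK genes and none of 7 B and plasma cell genes was called in WT, where each list had 1 gene at an unadjusted p under 0.05. DESeq2 called 1 and 0 of them and limma-voom 0 and 1. In TG edgeR called Cd3g, a chain of the T cell receptor complex, lower (-1.97 ± 0.69). Of the 7 B and plasma cell genes in TG edgeR and DESeq2 called 0 and limma-voom 1, and 1 had an unadjusted p under 0.05. None of 5 mast cell and basophil genes had enough counts to test.

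Of the tested ligands of neutrophil receptors 4 of 5 rose in WT and 3 of 5 in TG, and of those of macrophage receptors 4 of 5 and 5 of 5 (beside 16.8% and 16.4% of all genes called higher). Enough counts in the NX kidneys alone were present for 1 and 3 of these, so the others were tested only through the IRI kidneys and the counts are a description. Cxcl1, a ligand of CXCR2, read 0.179 ± 0.137 CPM (SD, n = 3) in WT after NX and 56.3 ± 37.4 (n = 6) after IRI, and 0.216 ± 0.0907 and 59 ± 26 in TG. Its log2 fold changes were 8.27 ± 0.9 and 8.07 ± 0.87 (edgeR adjusted p = 1.11e-06 and 9.56e-07). Cxcl2, another ligand, had no count in any of the 6 NX kidneys and was at least 510-fold higher after IRI in WT (8.64 ± 3.15 CPM) and at least 377-fold higher in TG (5.25 ± 3.28 CPM). Csf3, which encodes the ligand of CSF3R, was called higher in WT and missed the threshold in TG (0.52 ± 0.312 and 0.339 ± 0.384 CPM after IRI, edgeR adjusted p = 0.00226 and 0.0505). The ligands of CSF1R also rose, Csf1 by 2.41 ± 0.22 in WT and 2.13 ± 0.22 in TG and Il34 by 1.3 ± 0.2 and 1.6 ± 0.2 on the log2 scale. Cx3cl1, the ligand of CX3CR1, was called in TG (0.45 ± 0.13, edgeR adjusted p = 0.0139) and not in WT (0.28 ± 0.13, adjusted p = 0.111). Ccl2, which draws monocytes, rose by 5.06 ± 0.43 and 5.66 ± 0.44.

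Of 7 adhesion genes that let leukocytes hold to vessel walls, 6 rose in WT and 5 in TG. The share of all genes called higher was 16.8% in WT and 16.4% in TG. The endothelial selectin Sele rose by 4.94 ± 0.56 in WT and 3.22 ± 0.49 in TG, Vcam1 by 2.32 ± 0.17 and 1.79 ± 0.16, and Icam1 by 1.76 ± 0.16 and 1.95 ± 0.16. Tlr4, which recognizes calprotectin, rose by 2.05 ± 0.21 and 1.35 ± 0.2, whereas Ager, another of its receptors, was not called in either genotype. Cd36, a scavenger receptor of the same list, fell in WT (-0.75 ± 0.17, edgeR adjusted p = 0.00227) and was at -0.23 ± 0.17 in TG (adjusted p = 0.342). Of 5 tested S100 relatives, S100a10 rose in both genotypes (1.84 ± 0.27 and 2.39 ± 0.28). S100a6 and S100a11 were called by edgeR in TG and not in WT, where DESeq2 and limma-voom each called 2 of the 5 relatives. These calls are by edgeR, and a difference between genotypes was not shown for them: edgeR and limma-voom called no gene in the interaction, and DESeq2 called 51 of 19264.

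Transcripts of circulating blood cells rose with the neutrophil genes. All 5 red cell genes were called higher in WT and 4 in TG, and 4 and 2 of the 4 tested platelet genes, beside 16.8% and 16.4% of all genes. All 5 red cell genes but only 2 of these platelet genes had enough counts in the NX kidneys alone. Summed over the 5 genes, red cell transcripts ran from 38.8 to 130 CPM in WT NX kidneys and from 119 to 1410 CPM in WT IRI kidneys, and from 3.92 to 20.4 and 31.1 to 162 CPM in TG. Platelet transcripts ran from 6.18 to 7.97 and 13.8 to 36.6 CPM in WT and from 4.26 to 6.55 and 6.02 to 18.3 CPM in TG. Among the platelet genes Ppbp rose by 4.45 ± 1.07 in WT and 5.87 ± 1.39 in TG. The part of blood held in the vessels in the neutrophil values was not tested.

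Levels in TG and WT were compared among the 12 injured kidneys. This comparison does not by itself test whether TG kidneys respond differently to IRI, which the interaction further below asks. All 5 neutrophil genes had lower means in TG, at 0.347 to 0.442 of the WT mean. Of the macrophage genes Cx3cr1, Adgre1 and C1qa had lower and Cd68 and Csf1r higher means. None of the 10 differences passed the adjusted threshold with edgeR, where 0.0701% of 17111 genes were called. Limma-voom also called 0 of the 10, and DESeq2 called 2, beside 2.12% of all genes. Without WT replicate 1, the library with EGFP counts, edgeR again called 0. At an unadjusted p under 0.05 there were 9 of the 10, all but Cd68, beside 14.1% of all genes. The genes are not independent of each other, since the neutrophil genes rose and fell together among kidneys.

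After IRI S100a8 averaged 10.6 ± 7.9 CPM (SD, n = 6) in WT and 3.67 ± 3.05 in TG, and S100a9 16.6 ± 12.2 and 6.67 ± 6.63. For both genes 5 of 6 TG kidneys were below every WT kidney, and TG replicate 4 lay within the WT range. The log2 fold changes were -1.54 ± 0.49 for S100a8 and -1.34 ± 0.53 for S100a9 (edgeR adjusted p = 0.228 and 0.292). Without TG IRI replicate 4 the S100a9 value was -2.06 with an adjusted p of 0.0914. Csf3r averaged 9.63 ± 3.23 CPM in WT and 4.13 ± 3.05 in TG, again with 5 of 6 TG kidneys below every WT kidney. Its change was -1.23 ± 0.37 (edgeR adjusted p = 0.203), and without TG IRI replicate 4 it was -1.71 with an adjusted p of 0.0448. Over its 18 alternatives the adjusted p of Csf3r ran from 0.0448 to 0.376. Cxcr2 averaged 2.8 ± 1.42 and 1.15 ± 0.785 CPM, with 4 of 6 TG kidneys below the WT kidneys. Its change was -1.29 ± 0.48 (edgeR adjusted p = 0.274). Retnlg averaged 2.53 ± 2.49 and 1.12 ± 0.824 CPM, with 3 of 6 TG kidneys below the WT kidneys, a change of -1.19 ± 0.55 (edgeR adjusted p = 0.349). Without WT IRI replicate 5 it was -0.45, the smallest difference that any alternative gave for Retnlg. The groups of each of the 10 genes overlapped, as did those of all but 0.806% of genes.

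Csf1r was the macrophage gene with the smallest p. It averaged 47.4 ± 7.64 CPM (SD, n = 6) in WT and 60.4 ± 3.57 in TG, and 5 of 6 TG kidneys were above all WT kidneys. The log2 fold change was 0.34 ± 0.09 (edgeR adjusted p = 0.171), and DESeq2 gave an adjusted p of 0.0399. Hmgxb3, whose exons overlap those of Csf1r, differed by 0.3 ± 0.08 in the same direction (edgeR adjusted p = 0.176), and its part in the Csf1r values was not tested. Adgre1 averaged 5.69 ± 2.07 CPM in WT and 3.25 ± 0.551 in TG, and 5 of 6 WT kidneys were above all TG kidneys. Its change was -0.82 ± 0.23 (edgeR adjusted p = 0.176, DESeq2 adjusted p = 0.0286). Cx3cr1 averaged 1.27 ± 0.203 and 0.775 ± 0.228 CPM, with 5 of 6 TG kidneys below the WT kidneys, a change of -0.72 ± 0.23 (edgeR adjusted p = 0.231). C1qa averaged 13.4 ± 3.06 and 10.5 ± 1.95 CPM, with a change of -0.36 ± 0.17 (edgeR adjusted p = 0.353). Cd68 averaged 6.01 ± 1.18 and 7.37 ± 1.34 CPM, with a change of 0.28 ± 0.15 (edgeR adjusted p = 0.417). Csf1r and Adgre1, both used as marks of macrophages, had differences of opposite sign, and edgeR called neither.

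Red cell and platelet transcripts were lower in injured TG than in injured WT kidneys, with medians of -2.91 over 5 and -1.83 over 4 genes tested, and edgeR called none of them. All 5 and all 4 had an unadjusted p under 0.05, and DESeq2 called 5 and 2. After NX the 5 red cell genes had a median of -2.43 for TG against WT, with no call by edgeR, DESeq2 or limma-voom. There too all 5 had an unadjusted p under 0.05 by edgeR, beside 6.77% of all genes. In the same injured comparison the median was -1.25 over 11 further neutrophil genes, -0.64 over 12 pan-myeloid genes, -0.51 over 12 further macrophage genes and -0.01 over all genes, and edgeR called 0 genes of these lists. Unadjusted p-values under 0.05 were found for 7 of 11, 7 of 12 and 6 of 12 genes, and DESeq2 called 3, 2 and 3. Hdc, which encodes histidine decarboxylase, came nearest among the further neutrophil genes (edgeR adjusted p = 0.0904). It was at 17.6 ± 2.78 CPM in WT and 10 ± 2.66 in TG, and which cells gave these counts was not tested. Its value and those of the alpha globin gene Hba-a1 (-3.04 ± 0.54, adjusted p = 0.0604) were singled out after they were seen. Ligands differed less: Cxcl1 by 0.06 ± 0.46, Ccl2 by -0.04 ± 0.22 and Icam1 by 0.06 ± 0.12. The part of blood content in the lower neutrophil values of TG was not tested.

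**Figure D4:**
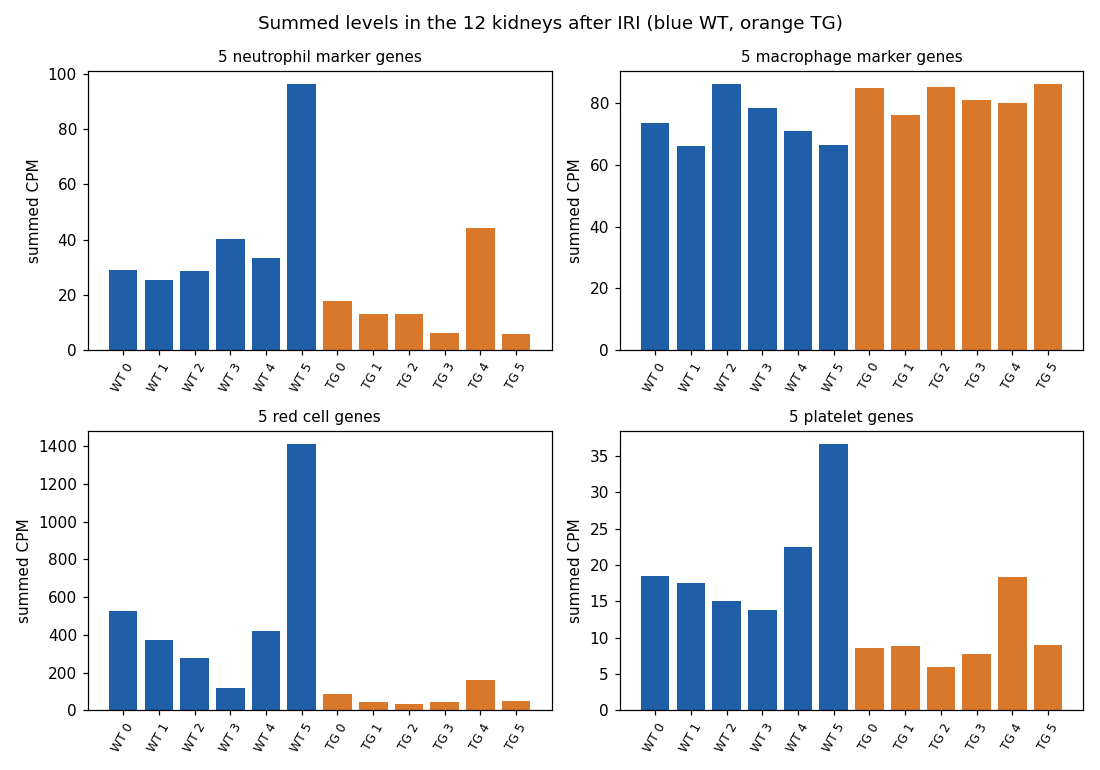
Summed CPM (y axis, linear from 0) of the neutrophil, macrophage, red cell and platelet genes in each of the 12 injured kidneys (x axis, genotype and replicate). WT replicate 5 has the highest neutrophil, red cell and platelet sums, and TG replicate 4 the highest of each in TG.

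Kidney by kidney, the summed level of the 5 neutrophil genes after IRI was 28.9, 25.3, 28.6, 40.4, 33.4 and 96.4 CPM in WT replicates 0 to 5. In TG replicates 0 to 5 it was 17.8, 13.1, 13.2, 6.3, 44.1 and 5.93 CPM. WT replicate 5 stood far above the other WT kidneys, and TG replicate 4 above every WT kidney but that one. WT replicate 5 also had the highest red cell sum (1410 CPM, the next 527) and platelet sum (36.6 CPM, the next 22.5) of the 12. TG replicate 4 had the highest of both in TG (162 and 18.3 CPM). WT replicate 3 ranked 3 of 12 for the neutrophil sum with the lowest red cell sum (119 CPM) and platelet sum (13.8 CPM) in WT. The macrophage sum lay between 66.1 and 86.3 CPM over the 12 kidneys, most of it from Csf1r (35.1 to 64.1 CPM). Adgre1 ran from 2.38 to 8.31 CPM and C1qa from 7.2 to 16.3 CPM. WT replicate 5 was at 66.6 CPM for the sum. Among the 12, from the highest, it ranked 12 for Csf1r, 8 for Cd68, 4 for Cx3cr1, 3 for C1qa and 1 for Adgre1. WT replicate 1, whose library held 206 EGFP counts although labelled WT, ranked 7 of 12 for the neutrophil sum and had the highest sum of neutrophil receptor ligands (116 CPM), while WT replicate 5 was next to lowest in that sum (22.6 CPM).

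Within genotypes, the neutrophil genes varied together and the macrophage genes did not. Over the 12 injured kidneys with the mean of each genotype subtracted, Pearson r of log2 CPM among the 5 neutrophil genes ran from 0.68 to 0.97 with a median of 0.9 over 10 pairs, highest for S100a9 with Csf3r and lowest for Cxcr2 with Retnlg. Among the macrophage genes r ran from -0.57 to 0.8 with a median of 0.02, highest for Adgre1 with C1qa and lowest for Adgre1 with Csf1r. Across the kinds, over 25 pairs, r ran from -0.73 (Retnlg with Csf1r) to 0.65 (S100a8 with Cd68), and Cd68 was the macrophage gene with positive r to all 5 neutrophil genes above 0.5. These values are descriptions without a test, since the kidneys share 2 genotypes and a high kidney such as WT replicate 5 enters every pair.

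**Figure D5:**
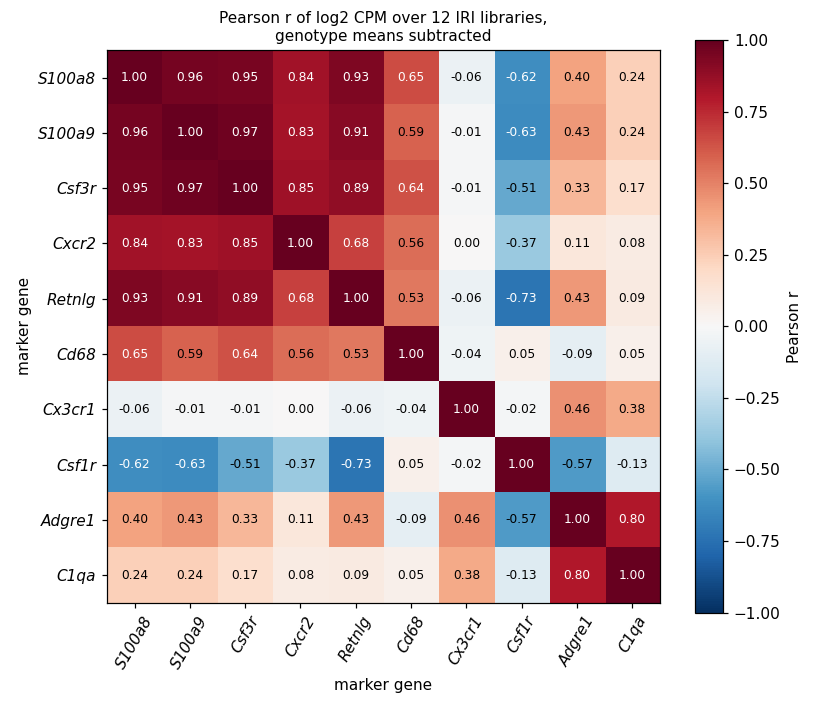
Pearson r of log2 CPM between each pair of the 10 genes (both axes) over the 12 injured kidneys after subtracting each genotype's mean, from blue (-1) to red (1). The neutrophil genes form a red block (0.68 to 0.97), and Csf1r is negative with all 5 of them (-0.37 to -0.73).

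Among 12485 genes of at least 1 CPM after IRI, those most like S100a9 included the interleukin gene Il1b (r = 0.96) and Clec4d (0.95), and those most like Csf3r included Il1b (0.97) and Clec4d (0.91). S100a8 was most like the GTPase gene Rac2 (0.93), Il1b (0.93) and Cd14 (0.92). For Cxcr2 the nearest were Clec4e (0.96), Gda (0.9) and Trpm2 (0.9), and for Retnlg the gelatinase gene Mmp9 (0.96), Rac2 (0.93) and Tnfrsf10b (0.91). Cd68 was nearest to Plaur (0.91), the urokinase receptor, then Aprt (0.89) and E2f4 (0.89). Adgre1 was nearest to the lysozyme gene Lyz2 (0.94), then Ska2 (0.9) and Msto1 (0.89). C1qa was nearest to the NADPH oxidase gene Cybb (0.95), then Ifi27 (0.9) and Aacs (0.86). Csf1r had Nlrc4 (0.94), Tmigd1 (0.94) and Spata7 (0.93), and Cx3cr1 had Fam43a (0.85), Men1 (0.82) and Prmt3 (0.81), the lowest likeness of the 10. All these r are the highest of 12485 over only 12 kidneys. Such a choice alone gives high values for unrelated genes, and no likeness was tested.

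The interaction asks whether the change from NX to IRI differed between genotypes. No gene passed by edgeR (0% of 19264), and 3 of the 10 had an unadjusted p under 0.05 beside 9.59% of all genes. DESeq2 and limma-voom also called 0 of the 10. On the log2 scale the difference, TG less WT, was -2.02 ± 0.76 for Csf3r (adjusted p = 0.426, edgeR) and -1.15 ± 0.39 for Adgre1 (adjusted p = 0.411). For Csf1r the difference was 0.41 ± 0.19 (adjusted p = 0.518). For S100a8 and S100a9 it was 0.27 ± 1.25 and 0.5 ± 1.47 (edgeR adjusted p = 0.97 and 0.947). Both are opposite in sign to the differences among injured kidneys. The 4 other neutrophil genes had differences with SEs of 1.25 to 1.67, so a genotype difference in their rise smaller than several-fold was not detectable.

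After NX alone, TG and WT were compared with only 6 of the 10 genes high enough to test, Csf3r and the 5 macrophage genes. None passed by edgeR, DESeq2 or limma-voom and none had an unadjusted p under 0.05, where edgeR called 0.0117% of 17100 genes and 6.77% had such a p. Csf3r differed by 0.79 ± 0.68 and Adgre1 by 0.33 ± 0.26, and with 2 SE either side the differences of Csf1r and Cx3cr1 lay within -0.4 to 0.26 and -0.53 to 0.58.

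Without surgery 7 of the 10 genes could be tested, S100a9, Csf3r and the 5 macrophage genes. TG against WT gave no call by edgeR, DESeq2 or limma-voom in males, where 0.00523% of 19126 genes were called, or in females, where 0.0418% were. Of all genes 5.22% in males and 9.09% in females had an unadjusted p under 0.05. In males Csf1r had an unadjusted p under 0.05 (-0.23 ± 0.1, adjusted p = 0.916, edgeR), with 62.5 to 70.4 CPM in WT and 47.4 to 65.2 CPM in TG. In females none of the 7 had. Females against males, where 21.3% of genes were called in WT and 21.2% in TG, also gave none of the 7 by edgeR, DESeq2 or limma-voom, and 1 had an unadjusted p under 0.05 in TG and none in WT, beside 33.2% and 33.4% of all genes. Csf1r came nearest, with 66.8 ± 3.55 CPM for TG females against 55.8 ± 8.9 for TG males (0.28 ± 0.1, edgeR adjusted p = 0.0699), and it was called without TG male replicate 2 (0.4, adjusted p = 0.0105). Levels of Csf1r in WT were 70.7 ± 3.99 CPM for females against 65.2 ± 4.48 for males, a difference of 0.13 ± 0.1 (edgeR adjusted p = 0.389).

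NX and no-surgery males were deposited in separate tables, so table and surgery cannot be told apart, and their levels are set side by side without a test. In WT, Cd68 was at 2.34 ± 0.0703 CPM after NX and 2.61 ± 0.0328 without surgery, and in TG at 2.45 ± 0.0861 and 1.92 ± 0.256, and the groups did not overlap in either genotype. Groups likewise did not overlap for 24.7% of the genes with counts in WT and 21.9% in TG. Cx3cr1 was at 4.58 ± 1.31 after NX and 3.73 ± 1.38 without surgery in WT and at 4.66 ± 1.15 and 3.26 ± 2.24 in TG, with overlapping groups. The other 3 macrophage genes overlapped as well. Of the neutrophil genes, only Retnlg in WT did not overlap, with 8 counts in total after NX and 0 without surgery.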

How the data were processed

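The authors deposited 2 tables of raw counts per gene, 1 without surgery and 1 with NX and IRI, on GRCm39 per the file headers. Per the submitters' processing notes, fastp 0.23.2, STAR 2.7.0 and featureCounts 2.0.3 were used. Of 57133 identifiers 90.8% had a symbol. Most deposited counts are even (37.3% to 41.9% of counts of 10 or more were odd), so halved counts were also tried. Genes passing filterByExpr (minimum count 10) were tested with edgeR 4.0.16 (quasi-likelihood, TMM, Benjamini-Hochberg threshold 0.05 over all genes) in R 4.3.3, separately for NX with IRI, NX, IRI and no surgery. The SE of an edgeR log2 fold change was taken as its absolute value divided by the square root of the F statistic. These fold changes use a prior count of 0.125, so the SE is approximate, most of all for genes near 0 counts. Code was tested on simulated data. Alternatives were RLE factors, no filter, DESeq2 1.42.0, limma-voom 3.58.1, halved counts, a replicate block, only libraries of that genotype, and each library left out. Leaving out the EGFP and fat libraries together was chosen after seeing the data. Levels use 1 joint TMM scaling. The genes and lists were chosen with earlier results of these data known. Further genes named in the text were, for each list, those called with the largest changes among genes of at least 0.5 CPM. Likeness was Pearson r over 12 IRI libraries. Of the genes the rule names, 1 is not reported here.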

Additional observations from a re-analysis of the deposited data

Results flagged for a closer look

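Of 20 groups of 6 injured kidneys examined, 1 for each of the 10 genes and genotypes, 6 held a kidney farther from the others than Dixon's critical value for 6 samples allows, and chance flags about 1 in 20 groups. WT IRI replicate 5 stood apart for S100a8 (26.4 CPM, the next 10.2), S100a9 (41.1 CPM, the next 15.7), Csf3r (15.9 CPM, the next 9.64) and Retnlg (7.56 CPM, the next 1.99). TG IRI replicate 4 stood apart for S100a9 (19.8 CPM, the next 5.72) and Csf3r (9.95 CPM, the next 4.42). These genes vary together, so the 6 cases come from 2 kidneys.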

How the results depend on the processing

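Of the recomputed changes of single genes, 742 kept their direction and side of the threshold, 14 lost a call, 5 gained one and 11 changed sign, none of the last with a call. For the interaction, S100a8 was -0.35 without WT NX replicate 2 and -0.27 without TG IRI replicate 4, and ran up to 0.84 with other kidneys left out. S100a9 was -0.48 without WT NX replicate 0, -0.22 without TG IRI replicate 4 and -0.61 without the EGFP and fat libraries, and up to 2.15 with single kidneys left out. Cxcr2 was 2.4 without TG NX replicate 2 and -5.68 without WT NX replicate 2. Retnlg was 0.66 with limma-voom, 3.41 without TG NX replicate 0 and 0.28 without WT IRI replicate 5, and as low as -0.96 without TG NX replicate 2. For IRI against NX in TG, Csf1r ran from -0.13 without NX replicate 1 to 0.23 without replicate 2, and C1qa from -0.35 without NX replicate 1 to 0.1 without replicate 2. The cause was not tested. For TG against WT after IRI the count of 0 called genes became 2 with DESeq2 (Csf1r and Adgre1), and ran from 0 to 1 with single kidneys left out (Csf3r, without TG IRI replicate 4). For females against males in TG it ran from 0 to 1 with single kidneys left out.

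With the replicate number as a block, 1 gene (Csf1r, adjusted p = 0.0374) was called for females against males in TG and 7 rather than 8 for IRI against NX in WT. Correlations of same-numbered libraries ran from -0.03 to 0.16 with surgery (median 0.04) and from 0.02 to 0.27 without (median 0.08, beside -0.04 for other pairs, with 8 of 18 over 0.1). Not every pair passed 0.1, so the number was not taken as a pairing, though a shared factor without surgery was not tested. Depth limits the neutrophil genes before injury, where most libraries held few counts.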
